A study of Mus musculus with 2 samples.

Results

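Immunoglobulin-rich cells were found in a sort of gonadal white adipose tissue (gWAT) that had been gated against leukocytes. They are defined here as the cells in which the antibody genes Igkc, Ighm, Igha and Jchain together made up at least 1% of the unique molecular identifiers (UMIs, each standing for 1 captured RNA molecule). They numbered 212 of the 10241 cells that had over 1000 but under 7000 detected genes and less than 8% of UMIs from mitochondrially encoded genes. The Tom+ library held 145 of them among 3524 cells, a share of 4.11% (95% interval 3.48 to 4.82), and the Tom- library 67 among 6717, a share of 0.997% (0.774 to 1.27). Without cell barcodes listed in both libraries, which are described below, these shares were 1.06% and 0.715%. Both libraries came from stromal vascular cells of 18-month-old male mice of the genotype p16-CreERT2/R26-LSL-tdTomato, and the number of mice behind each library is not given in the sources used here. In these mice, a tamoxifen-activated Cre recombinase is expressed from the p16 gene and switches on the red reporter tdTomato, in whichever cell type p16 is active. Cells negative for CD31, an endothelial marker, and for CD45, the leukocyte marker encoded by Ptprc, were sorted into a tdTomato-positive (Tom+) and a tdTomato-negative (Tom-) group, and 1 droplet library was made of each. The submitters labelled the sorted cells as progenitors of adipocytes together with mesothelial cells. With 1 library per sort, no difference between the sorts was tested, a difference of sorts and a difference of preparations cannot be told apart, and all intervals are exact 95% intervals that cover counting error only.

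Plasma cells and their proliferating precursors, the plasmablasts, are the terminal stage of the B cell lineage and secrete antibody. A secreted antibody is built of heavy chains, whose constant gene sets the isotype (Ighm for IgM, Igha for IgA, the Ighg genes for IgG), and of kappa or lambda light chains, and Jchain joins IgM and IgA into polymers. To make these proteins the cells expand their endoplasmic reticulum (ER) under the transcription factors Blimp-1 (Prdm1), IRF4 and XBP1, and switch off much of the B cell program set by Pax5. Part of the natural IgM of mice comes from B-1 cells, a B cell lineage of the body cavities and of visceral fat, which uses a restricted set of variable (V) genes.

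The members were chosen by their share of Igkc, Ighm, Igha and Jchain UMIs, so the levels of these 4 genes are given as a description. A Tom+ member held a median of 16462 Igkc UMIs (93 to 55851) and a Tom- member 6763 (34 to 39747). Few cells lay near the limit: 6 Tom+ and 9 Tom- cells had a share from 0.5% to 1%, and 6 and 5 had one from 1% to 2%. The lowest immunoglobulin share of a member was 1.15% in the Tom+ and 1.14% in the Tom- library, and the highest share of any other cell was 0.874% and 0.959%. The median share was 55.3% of UMIs in Tom+ members and 32.5% in Tom- members, against 0.0661% and 0.0201% in the other cells. Antibody RNA was thus found at a low level almost everywhere: an Igkc UMI was present in 99.5% of the other Tom+ cells and 83.3% of the other Tom- cells. Mzb1, which encodes an ER chaperone of B cells and plasma cells and was not part of the rule, separated the members further. An Mzb1 UMI was found in 130 of 130 Tom+ and 49 of 49 Tom- members with an immunoglobulin share of at least 10%, but in 7 of 15 and 7 of 18 of those between 1% and 10%. It was found in 1.78% of the other Tom+ cells (1.36 to 2.28) and 1.46% of the other Tom- cells (1.18 to 1.78), at medians of 14183 and 11874 UMIs per cell against 39262 and 30066 in members. In the band of 1% to 2%, none of the 6 Tom+ and 5 Tom- members held an Mzb1 UMI, so the cells just above the limit carried antibody RNA without this marker.

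**Figure D1:**
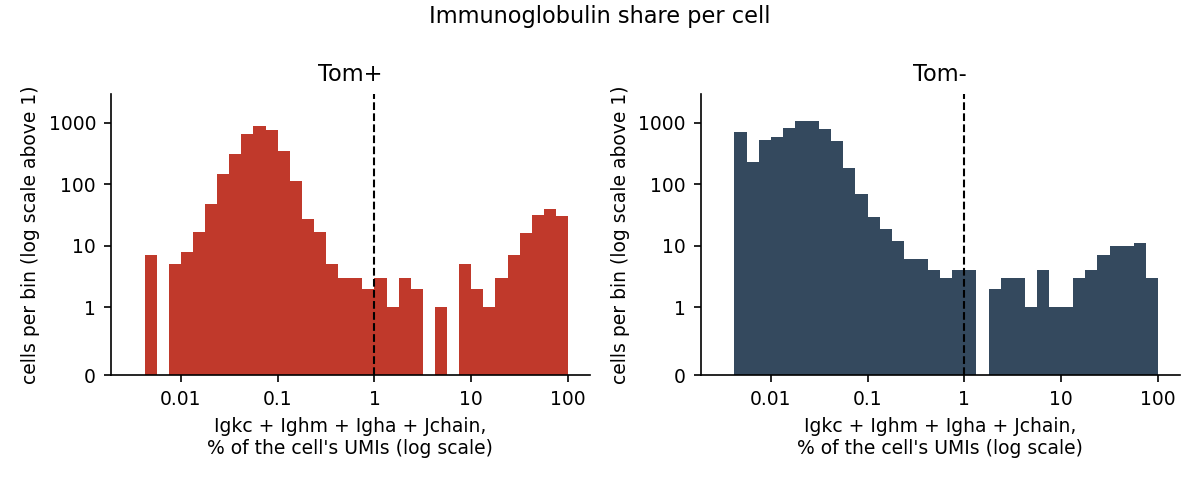
Number of cells (vertical axis, log scale above 1) by the share of UMIs from Igkc, Ighm, Igha and Jchain (horizontal axis, % of the cell's UMIs, log scale) in the Tom+ (left) and Tom- (right) library; the dashed line is the limit of 1%, and cells with no such UMI stand in the leftmost bar. Most cells lie far below the line, and the members to its right have medians of 55.3% and 32.5%.

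Many members also had a barcode in the other library. Of all barcodes, 2224 were listed in both libraries, and only 9 of these had both copies within the limits on genes and mitochondrial share. Of the Tom+ members, 113 of 145 had a copy in the Tom- library, with a median of 1049 UMIs against 43200 in the member, and 21 of 67 Tom- members had a copy in the Tom+ library, with 940 against 50052. The copies had nearly the same immunoglobulin share as their member (medians of 58.6% against 56.5% for Tom+ members and 52.6% against 52.4% for Tom- members), and no copy was within the limits or was counted as a member. For 1 Tom+ member, the copy in the Tom- library held more UMIs than the member. Members without a copy were shallower, with medians of 16783.5 and 19383.5 UMIs. Leaving out every barcode listed in both libraries kept 32 Tom+ members, 1.06% of the cells then left, and 46 Tom- members, 0.715%. These barcodes were left out again for the main isotype, the V gene pair, the counts of called genes, the medians of the plasma cell, ER folding and fibroblast lists, the share of fibroblast-poor cells and the reporter ratio. The other results were not run without them.

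Antibody genes of the members were dominated by IgM and, in the Tom+ library, by a single pair of V genes. All 145 Tom+ members and all 67 Tom- members had at least 5 UMIs of heavy chain constant genes. Ighm was the most abundant of these in 140 Tom+ members (96.6%, 92.1 to 98.9) and in 54 Tom- members (80.6%, 69.1 to 89.2). The other Tom+ members had Igha (4 cells) or Ighg3 (1 cell), and the other Tom- members had Igha (8 cells, 11.9%, 5.30 to 22.2), Ighg2c (2 cells) or Ighg1, Ighg2b or Ighg3 (1 cell each). Single cells were nearly pure for their isotype: the main constant gene held a median of 100% of the heavy chain UMIs in both libraries, and its lowest share was 77.6% and 80.0%. Igkc was the main light chain in 145 of 145 Tom+ and 65 of 67 Tom- members, and Iglc1 and Iglc3 were each the main light chain in 1 Tom- member. Without the shared barcodes, Ighm was the main heavy chain in 31 of 32 Tom+ members and in 42 of 46 Tom- members, 91.3%.

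V genes lie at the 5′ end of the transcript, which a 3′ library rarely reads, so the variable gene could be named in only some of the members. With at least 5 UMIs of heavy chain V genes, Ighv11-2 was the main V gene in 102 of 106 Tom+ members (96.2%, 90.6 to 98.96) and in 9 of 26 Tom- members (34.6%, 17.2 to 55.7). With at least 5 UMIs of kappa V genes, Igkv14-126 was the main V gene in 121 of 129 Tom+ members (93.8%, 88.1 to 97.3) and in 11 of 43 Tom- members (25.6%, 13.5 to 41.2), where Igkv3-2 followed with 10. Where both chains could be named, 101 of 106 Tom+ members (95.3%, 89.3 to 98.5) and 9 of 24 Tom- members (37.5%, 18.8 to 59.4) carried Ighv11-2 with Igkv14-126. The 106 Tom+ members held 6 distinct pairs and the 24 Tom- members 16. All 101 and all 9 cells with this pair had Ighm as their main constant gene. The intervals of the 2 libraries do not overlap, but they cover cells drawn from 1 library each, and no test over mice was possible. Without the shared barcodes the pair was found in 12 of 12 Tom+ and in 5 of 11 Tom- members (45.5%). Ighv11-2 joined to Igkv14-126 is known from B-1a cells whose IgM binds phosphatidylcholine.

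The V genes of this pair each have a close relative in the genome, so their sequences are shown to let a reader see how the reads could tell them apart. Each line gives the second exon of the germline V gene without its first 11 bases, which belong to the leader, 5′ to 3′ on the coding strand, from the GRCm38 reference with GENCODE vM21 gene models, and capitals mark the bases that differ between a gene and its relative. Ighv11-2 lies on the minus strand at chr12:114048241-114048536 and its relative Ighv11-1 at chr12:113981879-113982174. These stretches are 296 bases long and differ at 4 positions, an identity of 98.6%.
Ighv11-2: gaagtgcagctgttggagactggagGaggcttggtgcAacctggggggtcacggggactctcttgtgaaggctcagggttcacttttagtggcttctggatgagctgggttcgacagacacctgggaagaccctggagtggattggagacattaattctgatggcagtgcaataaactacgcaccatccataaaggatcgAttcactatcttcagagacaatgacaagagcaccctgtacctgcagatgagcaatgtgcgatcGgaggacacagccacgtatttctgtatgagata
Ighv11-1: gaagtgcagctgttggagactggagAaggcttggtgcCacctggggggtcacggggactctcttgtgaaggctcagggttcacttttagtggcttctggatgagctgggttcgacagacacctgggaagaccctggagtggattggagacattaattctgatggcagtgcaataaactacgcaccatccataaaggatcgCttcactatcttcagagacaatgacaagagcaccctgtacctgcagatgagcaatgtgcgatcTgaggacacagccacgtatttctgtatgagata
Igkv14-126 lies on the plus strand at chr6:67896356-67896642 and Igkv14-111 at chr6:68256583-68256869. These stretches are 287 bases long and differ at 26 positions, an identity of 90.9%.
Igkv14-126: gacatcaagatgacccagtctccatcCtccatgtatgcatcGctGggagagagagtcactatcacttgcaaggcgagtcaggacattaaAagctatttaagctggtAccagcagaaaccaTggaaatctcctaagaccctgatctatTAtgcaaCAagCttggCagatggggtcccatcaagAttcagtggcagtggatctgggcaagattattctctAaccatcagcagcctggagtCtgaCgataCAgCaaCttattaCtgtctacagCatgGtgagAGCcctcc
Igkv14-111: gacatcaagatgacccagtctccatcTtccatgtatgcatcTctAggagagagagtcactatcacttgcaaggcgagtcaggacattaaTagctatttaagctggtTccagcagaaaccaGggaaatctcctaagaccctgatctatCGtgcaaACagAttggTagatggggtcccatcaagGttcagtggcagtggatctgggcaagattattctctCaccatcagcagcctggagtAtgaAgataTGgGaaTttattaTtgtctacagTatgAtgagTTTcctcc
The counts fell almost wholly on the first gene of each couple. Tom+ members held 3046 UMIs of Ighv11-2 against 1 of Ighv11-1, and 5445 of Igkv14-126 against 4 of Igkv14-111. In Tom- members the numbers were 113 against 0 and 388 against 2. Reads that matched both relatives equally would have been dropped in counting, so the levels of near-identical V genes are uncertain. The deposited counts hold no base calls of the members' own reads, and no UMIs were assigned to D or J genes, so whether cells with the same V genes share a rearrangement was not analysed here.

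**Figure D2:**
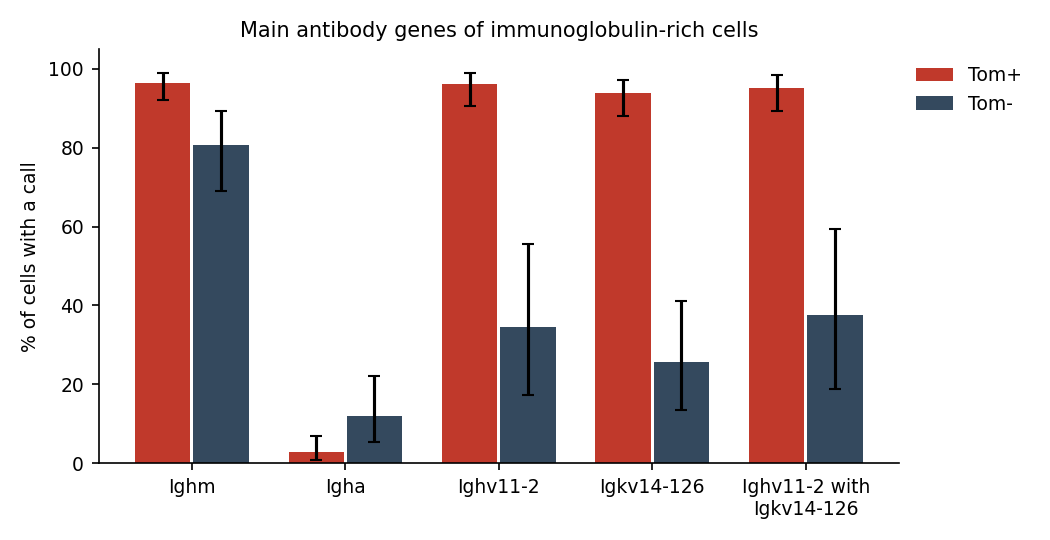
Share of immunoglobulin-rich cells (vertical axis, %) in which the named gene or gene pair was the most abundant of its kind, in the Tom+ (red) and Tom- (blue) library; whiskers are exact 95% intervals for counting error. Ighm led in both libraries, and Ighv11-2 with Igkv14-126 was found in 95.3% of Tom+ and 37.5% of Tom- members with both V genes named.

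To describe the rest of the transcriptome, UMIs were summed over the members and over all other cells of each library and scaled to CPM (counts per 1000000 UMIs). A gene was considered when its mean over both cell groups was at least 10 CPM in each library, and it was called higher or lower when the ratio reached 2-fold in both libraries. A gene nearly absent from the other cells could pass this minimum only through the members, which fixed its call as higher. Of 7158 genes, 159 were called higher (2.22%) and 3007 lower (42.0%). Because CPM are shares of a total, abundant antibody RNA lowers every other gene: antibody genes held 55.7% of all UMIs of Tom+ members and 44.0% of Tom- members, and the median log2 ratio of all genes tested was -1.27 and -0.92. With immunoglobulin UMIs left out of the total, every log2 ratio was 1.17 higher in the Tom+ and 0.83 higher in the Tom- library. The medians of all genes then were -0.08 and -0.07, and of 8022 genes 471 were higher (5.87%) and 341 lower (4.25%). A ratio on all UMIs between -1.17 and 0 in the Tom+ library, or between -0.83 and 0 in the Tom- library, was thus above 0 on this total. Without the shared barcodes 131 genes were higher, 120 of them among the 159, and 991 were lower.

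Plasma cell genes were higher in the members throughout. Of 12 genes on the plasma cell list, 12 passed the minimum and 11 were higher (background 2.22%), with a median log2 ratio of 6.43 in the Tom+ and 7.03 in the Tom- library. Without the shared barcodes these medians were 4.72 and 6.26. Mzb1 (ENSMUSG00000024353) was at 1130 CPM (1102 to 1158) in Tom+ members against 1.24 CPM in the other Tom+ cells, a log2 ratio of 9.84 (9.48 to 10.2). In Tom- members it was at 2183 CPM (2120 to 2247) against 1.30 CPM, a log2 ratio of 10.71. Derl3, an ER protein that helps to remove misfolded proteins, was at 133 against 0.883 CPM and 183 against 0.419 CPM (log2 ratios of 7.24 and 8.77). Pou2af1, a coactivator of octamer factors in B cells, was at 123 against 0.353 CPM and 128 against 0.238 CPM (8.45 and 9.07). These genes were almost silent in the other cells and could pass the minimum only through the members, which fixed their direction. The count of 11 higher genes was thus partly fixed. Of the factors that drive the plasma cell state, Prdm1 had log2 ratios of 7.16 and 8.12, Irf4 of 4.79 and 5.92, and Xbp1, which the other cells also used at 210 and 219 CPM, of 1.91 and 2.28. Tnfrsf17, which encodes the survival receptor BCMA, was higher by 6.98 and 7.59 on the log2 scale, and Sdc1, the plasma cell surface marker syndecan-1, by 2.50 and 2.58. Eaf2 and Slamf7 had log2 ratios between 6.25 and 7.70. Txndc5, a disulphide isomerase, had 2.05 and 2.41. Fkbp11, an ER prolyl isomerase, was the exception, with 0.35 (0.14 to 0.56) in the Tom+ and 2.20 in the Tom- library. It too was over 2-fold higher in both libraries once immunoglobulin UMIs were left out of the total (1.52 and 3.03).

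B cell genes were present in part. Of 14 genes on the B cell list, only 4 passed the minimum, and all 4 were higher, against 2.22% of all genes. The whole list summed to 5.26 and 5.84 CPM in the other Tom+ and Tom- cells. A gene could thus pass only through the members, which fixed the direction of these 4. Cd79a and Cd79b, the signalling subunits of the B cell receptor, were at 302 and 100 CPM in Tom+ members and 384 and 145 CPM in Tom- members, with log2 ratios of 7.85 and 9.51 and of 7.24 and 8.29. A Cd79a UMI was found in 90.3% of Tom+ and 85.1% of Tom- members. Ms4a1, which encodes CD20, and Cd37, a tetraspanin of B cells, were lower in level, between 20.7 and 41.5 CPM in members. Pax5, the factor that maintains B cell identity, had 0 UMIs over all 145 Tom+ members and 5 UMIs over the 67 Tom- members. On the B1 list, 4 of 6 genes passed the minimum and, against 2.22% of all genes, 2 were higher. These were Spn, which encodes CD43 (log2 ratios of 4.27 and 4.65), and Ctla4, an inhibitory receptor (6.87 and 8.19). Bhlhe41 (-0.28 and 0.60, or 0.89 and 1.44 without immunoglobulin UMIs) and Plac8 (-1.44 and 0.90) did not reach 2-fold in both libraries. Cd5, which marks B-1a cells, was found with 3 and 5 UMIs in all members together.

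MHC class II genes, which B cells use to present antigen and plasma cells largely lose, gave a mixed picture. Cd74, the invariant chain, was higher in both libraries, at 1634 against 86.7 CPM in the Tom+ and 2218 against 226 CPM in the Tom- library. H2-Aa, H2-Ab1 and H2-Eb1, which encode the class II chains themselves, did not reach 2-fold in both libraries on all UMIs. H2-Ab1 did so with immunoglobulin UMIs left out (1.92 and 2.68), and H2-Ab1 and H2-Eb1 did so in fibroblast-poor members on that total. H2-Aa was at 6.17 CPM in Tom+ members against 29.5 CPM in the other Tom+ cells, and at 160 against 62.1 CPM in the Tom- library. At least 5 UMIs of these 3 genes were found in 16 Tom+ members (11.03%, 6.44 to 17.3) and 29 Tom- members (43.3%, 31.2 to 56.0), against 3.58% and 10.6% of other cells. Members were deeper than other cells. An H2-Aa UMI was found in 10.3% of Tom+ members against 6.98% of other Tom+ cells, but in 4.41% against 6.70% with each cell thinned to 12159 UMIs. In the thinned Tom- library these shares were 33.3% and 21.2%.

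The 20 largest ratios, ranked by the smaller value of the libraries over genes averaging 50 CPM or more and leaving out antibody genes, held Mzb1, Pou2af1, Cd79a, Cd79b, Derl3 and Cd74 as well as genes not yet described. Gm30211, a gene model without a known function here, led with log2 ratios of 10.55 and 11.30. Ly6d, a surface protein of early B lineage cells, was among the most abundant, with 853 CPM against 1.39 CPM in the Tom+ and 466 against 0.555 CPM in the Tom- library. Cd69, an early activation marker that also retains lymphocytes in tissue, had log2 ratios of 7.28 and 8.73. Prg2, best known as the major basic protein of eosinophils, had 7.52 and 8.35. Cytip, a scaffold protein of leukocytes, had 6.61 and 6.81, and Ctss, a lysosomal protease of antigen-presenting cells, had 3.99 and 6.49. Tspan13, Srgn, Fam214a, Rilpl2 and Trp53inp1 completed the list with Creld2, Edem1 and Sec11c, which belong to the secretory pathway. The 10 lowest ratios were Msln, Upk3b, Igfbp5, Sema3c, Clu, Nkain4, Csrp2, Pi16, Smpd3 and Igfbp6. Msln and Upk3b mark mesothelium and Pi16 marks a fibroblast and progenitor state; Msln was at 1.27 CPM against 110 CPM in the Tom+ library and at 6.28 CPM against 377 CPM in the Tom- library.

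Within the secretory pathway, more genes of protein folding and quality control than of transport were higher in the members. On the ER folding list, 18 of 18 genes passed the minimum, 6 were higher and none lower, against 2.22% and 42.0% of all genes, with median log2 ratios of 0.37 and 0.86 against -1.27 and -0.92. Without the shared barcodes the medians were 0.00425 and 0.809. With immunoglobulin UMIs left out of the total, 11 were higher, against 5.87% of all genes, and the medians were 1.54 and 1.70. Creld2, an ER stress-induced chaperone, was at 260 against 26.0 CPM in the Tom+ and 417 against 25.7 CPM in the Tom- library, log2 ratios of 3.32 (3.21 to 3.43) and 4.02 (3.90 to 4.13). Ero1lb, an oxidase that supplies disulphide bonds, had 3.58 and 3.61, Sdf2l1 2.54 and 2.14, Pdia4 1.86 and 1.77, Fkbp2 1.38 and 1.15, and Manf, a secreted ER stress protein, 1.10 and 1.94. Hspa5, which encodes the main ER chaperone BiP, did not stand out, at 647 against 856 CPM (-0.41) and 982 against 1067 CPM (-0.12), and at 0.77 and 0.72 with immunoglobulin UMIs left out. On the list for ER-associated degradation, 9 of 10 genes passed and 4 were higher. These were Edem1 (2.56 and 3.90) and Edem2 (1.64 and 3.08), which mark misfolded glycoproteins for removal, and Herpud1 (2.04 and 2.58) and Sel1l (1.24 and 1.36), which belong to the complex that exports them.

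On the list for ER translocation and signal peptide removal, 4 of 20 were higher, against 2.22% of all genes, led by Sec11c, a catalytic subunit of the signal peptidase, at 380 against 25.9 CPM and 686 against 30.7 CPM (3.88 and 4.48). The others were Ssr4, Spcs2 and Spcs3, with log2 ratios from 1.01 to 1.91. For N-glycosylation (9 genes) and ER to Golgi transport (14 genes) none was called, with medians of -0.44 and 0.10 and of -0.47 and 0.04. With immunoglobulin UMIs left out, 9, 2 and 2 genes of these lists were higher, against 5.87% of all genes, and all 6 medians were above 0, from 0.71 to 1.39. Of the 7 sensors and factors of the unfolded protein response, Xbp1 alone was called on all UMIs, and 3 were higher with immunoglobulin UMIs left out (medians of 1.24 and 0.91). Ern1, which encodes the kinase that splices Xbp1 RNA, had 0.74 and -0.34, and Ddit3, the factor CHOP of prolonged ER stress, had -0.82 and -0.64. On the total without immunoglobulin UMIs these were 1.92 and 0.50 for Ern1 and 0.35 and 0.19 for Ddit3. Ribosomal protein genes had median log2 ratios of -0.96 and -0.44, above the -1.27 and -0.92 of all genes, and 2 of 87 were lower, against 42.0%. Without immunoglobulin UMIs these medians were 0.22 and 0.39, against -0.08 and -0.07 for all genes.

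Across the 212 members, the genes whose log-normalised level most resembled that of Mzb1 were led by Sec11c. Among 8696 genes it stood first with a Pearson correlation of 0.81, followed by Pdia4 (0.68), Creld2 (0.67), Edem1 (0.67), Cd74 (0.66), Manf (0.65), Tspan13 (0.63), Cd24a (0.62), Sdf2l1 (0.62) and Derl3 (0.61). These values describe cells of 2 libraries that share depth and the amount of fibroblast RNA described below, and no p-value is given. Within the Tom+ library Sec11c had a correlation of 0.77 and within the Tom- library of 0.85.

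The ER stress response element, at which ATF6 and XBP1 act with the factor NF-Y, gave a view of the promoters of these genes. Its letters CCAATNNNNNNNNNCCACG, which are 19 bases wide, were searched on both strands from 250 bases before to 50 bases after the start of each gene, taken from RefSeq on GRCm38.p6. They were found in 39 of 32851 promoters (0.119%) and in 2 of 151 promoters of the genes called higher (112 of 159 genes matched), those of Derl3 and Creld2. On the ER folding list, of which 15 of 18 genes matched, they were found in 7 of 17 promoters, those of Calr, Canx, Creld2, Dnajc3, Hsp90b1, Hspa5 and Pdia6. Of these 7 genes, only Creld2 was called higher on all UMIs. The promoters of the called genes Derl3 (chr10:75893148-75893397) and Creld2 (chr15:88819396-88819645) and of the uncalled gene Hspa5 (chr2:34771840-34772089), all on the plus strand, are shown for the 250 bases before the start with the match in capitals.
Derl3: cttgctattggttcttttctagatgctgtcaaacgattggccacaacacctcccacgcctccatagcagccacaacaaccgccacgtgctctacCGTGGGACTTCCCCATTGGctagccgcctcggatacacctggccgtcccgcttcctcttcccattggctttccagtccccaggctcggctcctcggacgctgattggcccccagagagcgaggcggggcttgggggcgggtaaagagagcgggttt
Creld2: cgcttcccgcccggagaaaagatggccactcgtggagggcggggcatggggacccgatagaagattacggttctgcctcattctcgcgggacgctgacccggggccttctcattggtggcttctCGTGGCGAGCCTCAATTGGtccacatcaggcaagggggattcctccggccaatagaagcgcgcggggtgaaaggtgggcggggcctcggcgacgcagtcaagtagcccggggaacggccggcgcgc
Hspa5: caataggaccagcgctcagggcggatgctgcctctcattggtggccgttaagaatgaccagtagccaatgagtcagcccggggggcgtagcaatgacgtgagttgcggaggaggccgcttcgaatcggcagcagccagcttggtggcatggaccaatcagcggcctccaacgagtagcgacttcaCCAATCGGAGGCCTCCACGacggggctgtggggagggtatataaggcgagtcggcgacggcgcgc
The match begins 156 bases before the start in Derl3, 126 in Creld2 and 65 in Hspa5. In Derl3 and Creld2 it reads on the opposite strand. A match is a run of letters and does not show binding, and the same letters stood before genes that were called and genes that were not.

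Of 22 genes of survival and homing, 13 passed the minimum, 5 were higher and 4 lower, against 2.22% and 42.0% of all genes tested. Tnfrsf13b and Tnfrsf13c, which encode the receptors TACI and BAFF-R, had log2 ratios of 7.52 and 7.05 in the Tom+ and 8.42 and 6.39 in the Tom- library. Cxcr4, the receptor for CXCL12 that holds plasma cells in their niches, had 4.84 and 5.98, and Itga4, the alpha 4 integrin, 5.25 and 6.56. Ly6c2 was at 106 against 0.510 CPM and 79.7 against 1.58 CPM (7.70 and 5.65). Higher genes this low in the other cells could pass only through the members, which fixed their direction. Klf2, Itgb1, Il6st and Il6ra, which the other cells used at 48.9 to 768 CPM, were the lower genes, with log2 ratios from -1.23 to -2.16. None of these 4 was 2-fold lower with immunoglobulin UMIs left out (-0.06 to -0.99). Il5ra, a receptor chain of B-1 cells and eosinophils, was below the minimum but nearly absent elsewhere in the Tom+ library, with 117 UMIs in members and 2 in other cells. In the Tom- library it had 13 and 6 UMIs.

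The members carried leukocyte RNA although the sort had been gated against CD45. Of 12 leukocyte genes, 9 passed and 7 were higher, against 2.22% of all genes, with median log2 ratios of 2.45 and 4.75. Those nearly absent from the other cells could pass only through the members, which fixed their direction. Ptprc, which encodes CD45, was at 31.8 CPM against 4.90 CPM in the Tom+ library (2.70, 2.41 to 2.98) and 41.5 against 1.46 CPM in the Tom- library (4.83, 4.42 to 5.24). A Ptprc UMI was found in 52.4% of Tom+ members (44.0 to 60.8) and 46.3% of Tom- members (34.0 to 58.9), against 2.16% and 0.782% of the other cells. With each cell thinned to 12159 UMIs, the shares in members were 28.7% and 27.8% and those in other cells 1.58% and 0.571%. The protein was not measured in these files. Markers of other lineages were low in the members, and their part in the results was not tested. No gene of the endothelial (7 genes), T or NK cell (10), granulocyte or mast cell (5), erythroid (4) or Schwann cell (3) list reached the minimum. The endothelial list summed to 9.98 CPM in Tom+ members and 11.1 CPM in Tom- members, and 3 and 4 of its genes were at 0. Most of these sums was Pecam1 (9.44 and 8.21 CPM), which encodes CD31. With immunoglobulin UMIs left out, Pecam1 passed the minimum and was higher, by 2.54 and 1.44 on the log2 scale. T or NK cell genes summed to 11.1 CPM in Tom+ members, against 11.4 CPM in other cells, and to 49.3 CPM in Tom- members, against 6.73 CPM. Without immunoglobulin UMIs in the total they summed to 24.99 and 87.9 CPM in members. In fibroblast-poor members 9 of the 10 genes were at 0 in each library. Granulocyte and mast cell genes summed to 3.27 and 0.483 CPM, Schwann cell genes to 0.908 and 0.483 CPM, and all 4 erythroid genes were at 0. Macrophage genes summed to 15.8 and 17.4 CPM, led by Cd68, against 339 and 64.0 CPM in other cells. Lyz2, which encodes lysozyme and was the only one of them to reach the minimum, was lower, at 3.63 against 159 CPM and 4.83 against 17.2 CPM. Mesothelial genes were lower in 9 of 9 cases, with medians of -6.01 and -5.42, and both mural genes past the minimum were lower (medians of -2.86 and -3.40), against 42.0% of all genes.

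Of the adipogenic genes 3 of 7 passed, and Fabp4, a fatty acid carrier, was lower (-2.10 and -2.01). Of the germinal centre genes Bcl6 and Fas passed and both were lower (medians of -1.71 and -1.43). Of 7 proliferation genes 2 passed and none was called. Of 13 genes that respond to tissue dissociation, such as Fos and Jund, 9 were lower (medians of -1.37 and -1.51), against 42.0% of all genes tested. None of these adipogenic, germinal centre and dissociation genes was called with immunoglobulin UMIs left out. In fibroblast-poor members on that total, 7 of the 13 dissociation genes were lower, against 22.4% of all genes.

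**Figure D3:**
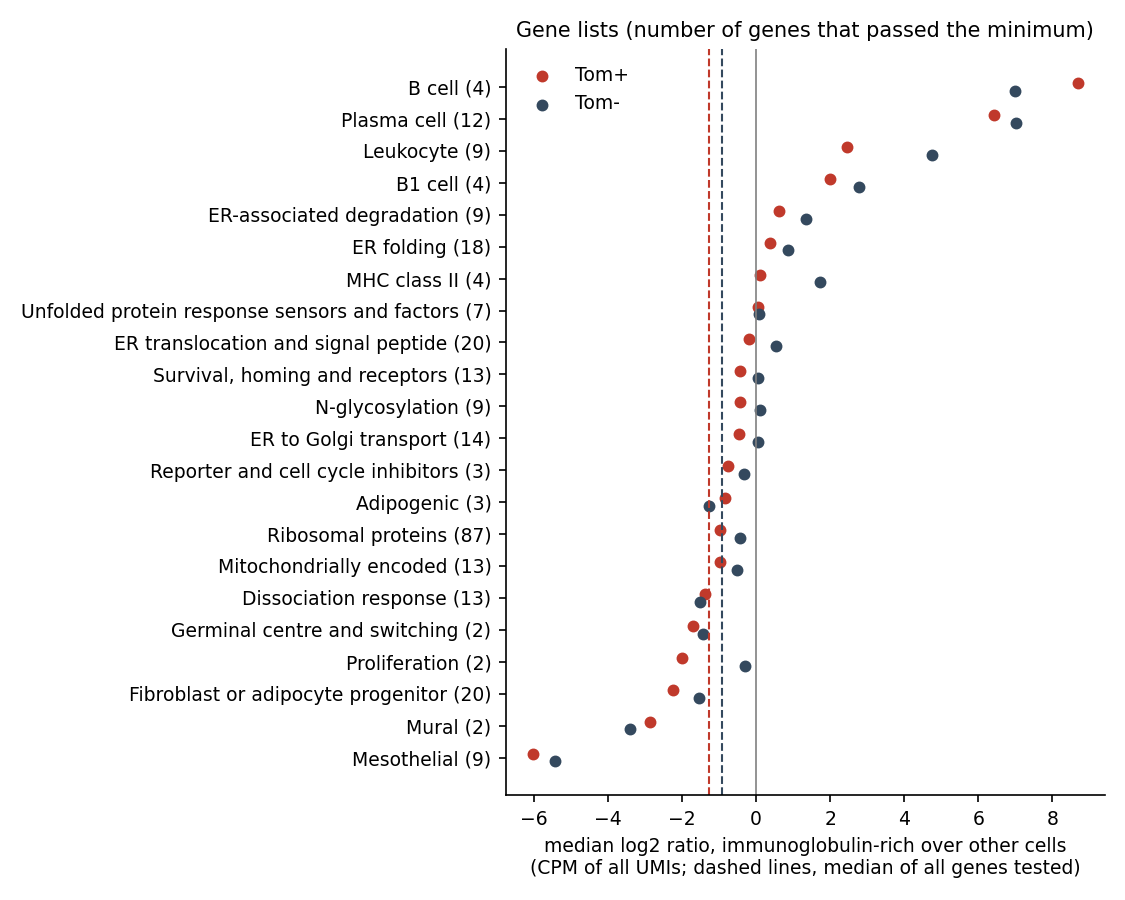
Median log2 ratio of immunoglobulin-rich over other cells (horizontal axis, CPM of all UMIs) for each gene list with at least 2 genes past the minimum (their number in parentheses), in the Tom+ (red) and Tom- (blue) library; dashed lines are the medians of all genes tested. Plasma cell genes stand at 6.43 and 7.03, ER folding genes at 0.37 and 0.86 and mesothelial genes at -6.01 and -5.42, against -1.27 and -0.92 for all genes.

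Fibroblast genes were lower in the members but far from absent, and their level differed widely from member to member. All 20 genes of the fibroblast and adipocyte progenitor list were lower, against 42.0% of all genes, with median log2 ratios of -2.24 and -1.55, or -1.13 and -1.11 without the shared barcodes. With immunoglobulin UMIs left out, 6 of 20 were lower, against 4.25% of all genes, and the medians were -1.07 and -0.72. Dcn, which encodes the matrix proteoglycan decorin and was the most abundant gene of the list in members, was at 4923 against 19071 CPM in the Tom+ library. Per cell, the 20 genes took a median of 6.40% of UMIs in other Tom+ cells and 5.62% in other Tom- cells. Members with less than this value divided by 10 (0.640% and 0.562%) are called fibroblast-poor and the rest fibroblast-containing. There were 60 fibroblast-poor Tom+ members (41.4%, 33.3 to 49.8) and 20 Tom- members (29.9%, 19.3 to 42.3), leaving 85 (58.6%) and 47 (70.1%) fibroblast-containing. Only 9 and 4 members lay within 1.5 times of the limit, which is a cut in a range and not a cell type. With the median divided by 4 as the limit, the fibroblast-poor share was 60.0% and 49.3%.

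**Figure D4:**
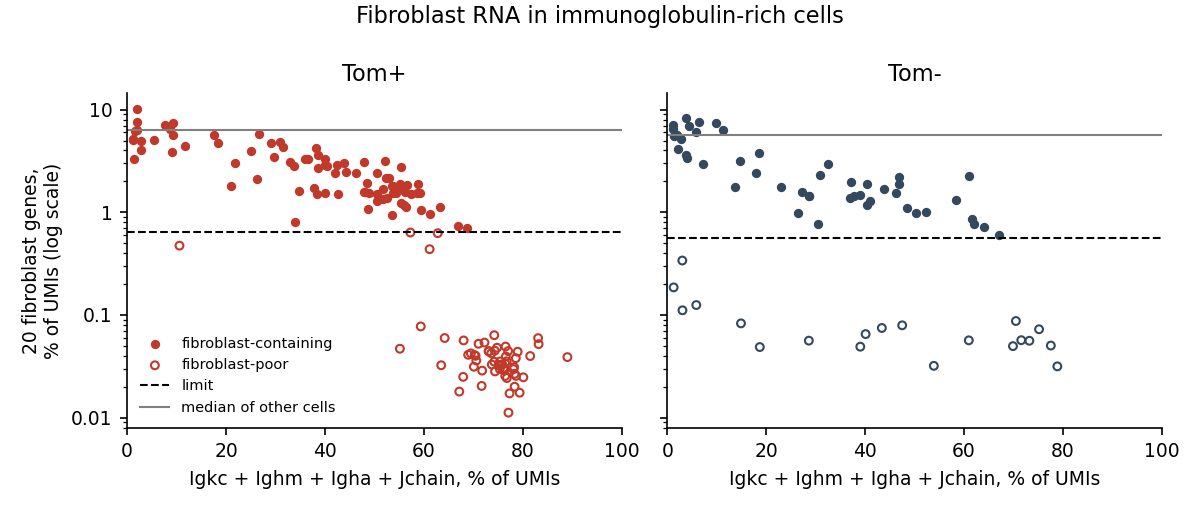
Share of UMIs from 20 fibroblast genes (vertical axis, %, log scale) against the immunoglobulin share (horizontal axis, %) for each immunoglobulin-rich cell of the Tom+ (left) and Tom- (right) library; the dashed line is the limit between fibroblast-poor (open) and fibroblast-containing (filled) cells and the grey line the median of other cells. Fibroblast-poor cells gather near 0.0356% and 0.0609%, well under the limits of 0.640% and 0.562%. Both axes are shares of the same UMIs, so antibody RNA itself lowers the fibroblast share.

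Fibroblast-containing members mostly held plasma cell RNA and fibroblast RNA side by side. They had a median of 787 fibroblast UMIs in the Tom+ and 605 in the Tom- library, close to the 872 and 641 of other cells, against 12 and 15.5 in fibroblast-poor members. They also had a median of 108 and 93 UMIs of plasma cell genes, against 130 and 175.5 in fibroblast-poor members and 6 and 4 in other cells. Some held little of this RNA: the lower quartile was 53 and 10 UMIs. An Mzb1 UMI was found in 77 of 85 Tom+ and 37 of 47 Tom- fibroblast-containing members. Their UMIs outside the antibody genes numbered 21395 and 19252. The medians of fibroblast-poor members (8878.5 and 10480) and of other cells (14174 and 11872.5) add up to 23052.5 and 22352.5. They had 4761 and 4457 genes per cell, against 2629.5 and 2789.5 in fibroblast-poor members, and a lower immunoglobulin share (42.1% and 28.7% against 74.97% and 45.5%). The split used a share of all UMIs, so antibody RNA itself lowers the fibroblast share. Part of the difference in immunoglobulin share can thus be built in. With shares of UMIs outside the antibody genes, 57 of 145 Tom+ and 20 of 67 Tom- members were fibroblast-poor. Pdgfra, the receptor that marks adipocyte progenitors, had a UMI in 92.9% of fibroblast-containing Tom+ members and 83.0% of Tom- members, against 5 of 60 (8.33%) and 3 of 20 fibroblast-poor members. Pdgfra is on the fibroblast list that made the split. The split thus fixed the direction of this contrast and of the one in fibroblast UMIs. The Ighv11-2 and Igkv14-126 pair was found in 52 of 55 fibroblast-poor and 49 of 51 fibroblast-containing Tom+ members with both V genes named, and in 3 of 7 and 6 of 17 Tom- members.

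These are the values by which 2 cells in 1 droplet would be looked for, and their part in the co-expression was not tested. Scrublet, a doublet caller that compares each cell with sums of random cell pairs, called none of the 145 Tom+ and 1 of the 67 Tom- members. Among the other cells it called only 2 of 3379 Tom+ cells (0.0592%), too few to show that it worked in that library, and 121 of 6650 Tom- cells (1.82%). Median Scrublet scores were 0.111 and 0.0769 in fibroblast-containing members, 0.0152 and 0.0634 in fibroblast-poor members and 0.0541 and 0.0356 in other cells. Mesothelial RNA had no part in choosing these cells. At least 3 UMIs of Msln, Upk3b and Upk1b were found in 0 of 85 fibroblast-containing Tom+ members, which allows a share of up to 4.25%. They were found in 2 of 47 such Tom- members (4.26%, 0.520 to 14.5), and in 0 of 60 and 0 of 20 fibroblast-poor members. Among the other cells this share was 7.72% (6.85 to 8.68) and 29.1% (28.1 to 30.3).

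In fibroblast-poor members, more genes stood above the other cells than in all members on the same total, over all genes as well as on the secretory lists. With immunoglobulin UMIs left out of the total, 957 of 7690 genes were higher than in other cells (12.4%) and 1726 lower (22.4%). All 12 plasma cell genes were higher, with medians of 8.74 and 8.68, and all 12 leukocyte genes, with 4.05 and 6.35. Here too, genes nearly absent from the other cells could pass only through the members. Of the ER folding genes 14 of 18 were higher (2.45 and 2.56), of those for ER-associated degradation 8 of 9, for translocation 12 of 20, for N-glycosylation 6 of 9 and for ER to Golgi transport 9 of 14. In all members on the same total, the higher genes of these lists numbered 11, 6, 9, 2 and 2, and those of all genes 471 of 8022 (5.87%). Hspa5 was among the higher genes in these cells, with 1.37 and 1.39. The fibroblast genes were all lower, which the choice of cells fixed. Mitochondrially encoded RNA took a median of 5.99% and 5.27% of the UMIs of fibroblast-poor members outside the antibody genes, against 4.10% and 3.62% in other cells, and none of the 13 genes was called. The limit of 8% was set on all UMIs, so on this measure it held the members less tightly. The highest shares were 27.2% and 9.82% in fibroblast-poor members, against 7.98% and 7.92% in other cells.

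The reporter transcript was abundant in Tom+ members. tdTomato RNA was at 644 CPM (623 to 665) in Tom+ members and 223 CPM (219 to 228) in the other Tom+ cells, a log2 ratio of 1.53 (1.47 to 1.58). A tdTomato UMI was found in 93.1% of Tom+ members (87.7 to 96.6) and 29.7% of other Tom+ cells (28.1 to 31.2), and in 93.4% and 24.8% after thinning to 12159 UMIs. The median number per cell was 27.5 in fibroblast-poor and 19 in fibroblast-containing Tom+ members. Among the 101 Tom+ members with the Ighv11-2 and Igkv14-126 pair, 100 held a tdTomato UMI, with a median of 26 per cell. Among the 16 Tom+ members with no V gene named, 9 held a tdTomato UMI (56.3%, 29.9 to 80.2), at a median of 12260.5 UMIs per cell. In the Tom- library members were at 10.1 CPM and other cells at 11.4 CPM (log2 ratio -0.17, -0.86 to 0.45, or 0.67 without immunoglobulin UMIs). The log2 ratio of Tom+ over Tom- was 5.99 (5.37 to 6.68) in members and 4.30 in other cells, in the direction of the sort.

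**Figure D5:**
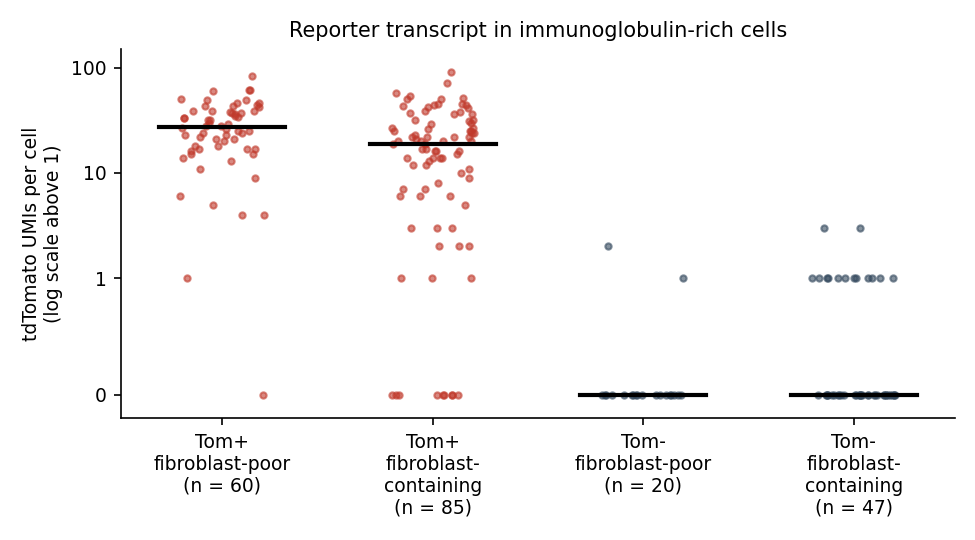
tdTomato UMIs per cell (vertical axis, log scale above 1) in fibroblast-poor and fibroblast-containing immunoglobulin-rich cells of each library; each point is a cell and each bar a median. The medians were 27.5 and 19 in the Tom+ library and 0 in both groups of the Tom- library.

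The p16 transcript itself was rare. Cdkn2a, which encodes p16 and also Arf, was found in 6 of 145 Tom+ members (4.14%, 1.53 to 8.79), against 3.85% of the other Tom+ cells. In the Tom- library it was found in 9 of 67 members (13.4%, 6.33 to 24.0) against 4.92% of other cells (4.41 to 5.46). These Tom- members included 6 of the 20 fibroblast-poor cells (30.0%, 11.9 to 54.3) and 3 of the 47 fibroblast-containing cells (6.38%). After thinning, a Cdkn2a UMI was left in 1.47% of Tom+ members and 9.26% of Tom- members, against 3.68% and 5.26% of other cells. In the thinned Tom- library it was left in 5 of 16 fibroblast-poor members (31.3%, 11.02 to 58.7), against 5.26% of other cells (4.51 to 6.10), and in none of 38 fibroblast-containing members. Cdkn1a, which encodes the cell cycle inhibitor p21, was lower in members of both libraries, at 64.3 against 282 CPM and 66.7 against 283 CPM. Its log2 ratios with immunoglobulin UMIs left out were -0.96 and -1.25, and it was not called lower in both.

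The Tom+ and Tom- members differed in genes other than the reporter. On all UMIs and at a mean of at least 50 CPM, 12 of 1500 genes were at least 2-fold higher in Tom+ members (0.800%) and 83 lower (5.53%). Without shared barcodes these counts were 63 and 100, and with immunoglobulin UMIs left out 39 and 57. In fibroblast-poor members, with immunoglobulin UMIs left out, 237 of 2710 were higher (8.75%) and 177 lower (6.53%). The deepest Tom+ cell held 132738 UMIs, and without it these counts were 219 and 189. The fibroblast genes, whose summed share had chosen these cells, came to 3577 CPM in Tom+ and 1441 CPM in Tom- members, and genes of tissue dissociation to 26602 and 16178 CPM. Per cell, the medians were 12 fibroblast UMIs in Tom+ and 15.5 in Tom-, and the most in 1 cell was 580 and 37. At a mean of at least 10 CPM, 11 of 17 fibroblast genes and 7 of 13 dissociation genes were higher in Tom+, against 16.2% of all genes, and their part in these counts was not tested. Some of the largest differences rested on a single cell: 93.1% of the Lcn2 UMIs and 86.2% of the Ptgs2 UMIs of fibroblast-poor Tom+ members came from 1 cell each. Slamf9, a receptor of the SLAM family, and Vpreb3, a B lineage gene, were spread more widely, in 41 and 28 of 60 Tom+ cells against 4 and 1 of 20 Tom- cells (log2 ratios of 2.99 and 3.53). On the B cell list, at a mean of at least 10 CPM, none of 9 genes was higher in Tom+ and 6 were lower (median -2.04), against 10.8% of all genes lower. Of the 14 listed genes, 7 had no UMI in fibroblast-poor Tom+ members and 2 had none in Tom- members. Genes absent from Tom+ members could pass only through Tom- members, so this count was partly fixed. Mt2, a metallothionein, was found in 50 and 10 of these cells, with a log2 ratio of 3.06. Of the 237 higher genes, 12 had at least 50% of their Tom+ UMIs from 1 cell, and of the 177 lower genes 36 had this share of their Tom- UMIs from 1 cell.

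In the other direction, Tom- members held more RNA of MHC class II genes other than Cd74, and of cell division. At a mean of at least 10 CPM, 1169 of 7204 genes were higher in fibroblast-poor Tom+ than Tom- members (16.2%) and 776 lower (10.8%). On the MHC class II list, 3 of 4 genes were lower in fibroblast-poor Tom+ than Tom- members, with log2 ratios of -6.26 for H2-Aa and -3.18 for H2-Eb1. In the other cells both were lower in the Tom+ library too, at -1.08 and -1.04. H2-Aa was found in 4 of 60 Tom+ and 13 of 20 Tom- fibroblast-poor members. The 7 proliferation genes summed to 63.5 CPM in Tom+ and 557 CPM in Tom- fibroblast-poor members, and 6 were called lower. With Pcna at 45.2 of the 63.5 CPM, the others could pass the minimum almost only through the Tom- members, which largely fixed this count. Mki67 had 3 UMIs in Tom+ and 30 UMIs in Tom- fibroblast-poor members. The 3 Tom+ UMIs came from the 1 Tom+ member whose copy was the deeper one, with 2325 UMIs in the Tom+ and 119078 UMIs in the Tom- library. At least 2 UMIs of Mki67 or Top2a, which cycling cells express, were found in 2 of 145 Tom+ members (1.38%, 0.167 to 4.89) and 9 of 67 Tom- members (13.4%, 6.33 to 24.0), against 0.148% and 0.256% of other cells. The cell with the deeper copy was 1 of these 2 Tom+ members, and the barcodes of both were listed in both libraries. A few Tom- cells carried most of this RNA: 56.7% of the Mki67 UMIs of the fibroblast-poor Tom- members came from 1 cell, and 95.1% of those of Ube2c. Of the 12 plasma cell genes, Prdm1 (1.03), Irf4 (1.58), Tnfrsf17 (1.78) and Slamf7 (1.09) were higher in Tom+ and Fkbp11 (-1.80) was lower. None of the 18 ER folding genes was called (median -0.32).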

How the data were processed

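The deposited files hold UMI counts per gene and cell barcode for 1 Tom+ and 1 Tom- library, and these raw counts were not normalized by the authors. Per the labels and the submitters' processing notes, the libraries were made with a 10x 3′ kit (v3.1 chemistry), sequenced on a DNBSEQ-G400RS and counted with Cell Ranger 3.0.2 on mm10. The matrices held 5566 Tom+ barcodes with 61119807 UMIs and 11838 Tom- barcodes with 96872394 UMIs, over 31054 genes. Cells with over 1000 but under 7000 genes and below 8% mitochondrial UMIs were kept, the limits given by the study. The members, gene lists and tests were chosen with earlier results of these data known. With 1 library per group no test was made: UMIs were summed over cells and scaled to counts per 1000000 (CPM). Genes averaging 10 CPM or more (50 CPM between Tom+ and Tom- members) were called at 2-fold, in both libraries where members were compared with other cells. Shares have exact Clopper-Pearson intervals, levels exact Poisson intervals and ratios exact conditional intervals, all at 95% and for counting error only, and a count of 0 was set to a floor of 3 counts over the group in a ratio. Named genes were those of the lists, the 20 highest and 10 lowest ratios of genes averaging 50 CPM or more, and the 10 genes closest to Mzb1 over members. Genes singled out between Tom+ and Tom- fibroblast-poor members came from the largest ratios and were chosen after their values were seen. Shares of cells were repeated with each cell thinned to 12159 UMIs, leaving out shallower cells. Single values of a few list genes are not reported here. Doublets were scored with Scrublet and kept. Alternatives changed the immunoglobulin minimum, the limits on genes and mitochondrial share, the total, the weight of cells, the CPM minimum, the other cells, doublets and barcodes listed in both libraries. Sequences came from GENCODE gene models on GRCm38 and from RefSeq promoters on GRCm38.p6. Python 3.11.15, numpy 2.4.6, scipy 1.17.1, pandas 2.3.3, scanpy 1.11.5, anndata 0.12.19 and matplotlib 3.10.9 were used, and the statistics were tested on simulated data.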

Additional observations from a re-analysis of the deposited data

Results flagged for a closer look

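Plac8 and H2-Aa had ratios of opposite direction in the libraries, and the difference was not tested. The log2 ratio of members over other cells was -1.44 in the Tom+ and 0.90 in the Tom- library for Plac8, a gene of B-1 and other immune cells, and it was -0.26 and 1.73 with immunoglobulin UMIs left out of the total. For H2-Aa it was -2.26 and 1.37, or -1.08 and 2.20 without immunoglobulin UMIs. Barcodes with 1000 genes or fewer, which entered no comparison, also held antibody RNA: 101 of 1892 such Tom+ barcodes and 185 of 4969 such Tom- barcodes had an immunoglobulin share of at least 1%. Of these, 21 Tom+ barcodes were copies of a Tom- member, 112 Tom- barcodes were copies of a Tom+ member, and 30 and 35 were listed in 1 library only.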

How the results depend on the processing

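No paired analysis was possible because each sorted group had 1 library and the labels carry no replicate numbers. Of 133 values under alternative settings for 19 results, 72 stayed within the main value's counting interval (counts of genes: within 1.5 times) and 61 moved, none of them to the opposite direction. The setting for fibroblast-poor members also leaves immunoglobulin UMIs out of the total. The settings without shared barcodes (other than for the share of members), with fibroblast-poor members and with other V gene minimums, and the immunoglobulin minimum of 5% for the V gene pair, were chosen after seeing the data. The share of members was 5.09% of Tom+ cells at a mitochondrial limit of 5%, 0.729% of Tom- cells at an immunoglobulin minimum of 10%, and 1.06% and 0.715% without barcodes listed in both libraries. Genes called higher numbered 471 with immunoglobulin UMIs left out of the total, 55 at a minimum of 50 CPM, 727 with no minimum and 957 for fibroblast-poor members. Genes called lower numbered 341, 921, 5212 and 1726 under these settings, 1961 with cells weighted equally and 991 without shared barcodes. For Tom+ and Tom- in turn, the plasma cell median was 7.61 and 7.86 with immunoglobulin UMIs left out, 7.24 and 8.77 at 50 CPM, 4.72 and 6.26 without shared barcodes, 8.74 and 8.68 for fibroblast-poor members and 7.72 and 7.95 after scaling by median-of-ratios size factors. In Tom+ it was 6 with cells weighted equally, and in Tom- 7.59 without mesothelial-marker cells. The ER folding median was 1.54 and 1.70 with immunoglobulin UMIs left out, 0.0604 and 0.491 at 50 CPM, 2.45 and 2.56 for fibroblast-poor members, 1.65 and 1.78 with size factors, and 0.00425 in Tom+ without shared barcodes. The fibroblast median was -1.07 and -0.717 with immunoglobulin UMIs left out, -1.98 and -1.18 with cells weighted equally, -2.37 and -1.82 at an immunoglobulin minimum of 5%, -2.36 and -1.98 without mesothelial-marker cells, -1.13 and -1.11 without shared barcodes, -4.50 and -5.00 for fibroblast-poor members, -0.960 and -0.631 with size factors, and -1.68 in Tom- without Scrublet calls. Fibroblast-poor members made 60.0% and 49.3% with the other cells' median divided by 4 as the limit. Without shared barcodes Ighm led in 91.3% of Tom- members and the V gene pair was found in 100% of 12 Tom+ members. At a minimum of 20 V gene UMIs the pair was found in 100% of the 2 Tom- members left. The tdTomato log2 ratio of Tom+ over Tom- was 7.88 in fibroblast-poor members. Genes higher in Tom+ than Tom- members numbered 39 with immunoglobulin UMIs left out, 63 without shared barcodes and 237 in fibroblast-poor members, and lower genes 131 with cells weighted equally and 177 in fibroblast-poor members. Beyond the settings' own construction, the cause was not tested.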

Other observations

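Lambda variable RNA was found in cells that used kappa. At least 5 UMIs of Iglv1 were present in 81 Tom+ members, 77 of which also had at least 5 UMIs of Igkv14-126, and in 34 Tom- members, 6 of which did. Lambda constant genes held a median of 0.469% of the light chain constant UMIs of Tom+ members and 0.602% of those of Tom- members. Beside the leading pair, Ighv1-26 with Igkv3-2 and Ighv1-76 with Igkv16-104 were each found in 1 cell of each library. Of the cells with 7000 genes or more, which the limits leave out, 1 of 32 Tom+ cells and 2 of 27 Tom- cells had an immunoglobulin share of at least 1%.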
